A study of Capra hircus with 3 samples.

Results

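Cells of goat skin at embryonic day 60 (E60) were chosen by 6 genes that they shared: DKK1, CXCL14, F13A1, ISM1, C1QTNF7 and BMP7. A cell was chosen when it held at least 1 unique molecular identifier (UMI, a single captured transcript) of at least 3 of these markers and of fewer than 3 of SMOC2, SEMA3C, SERPINF1, MFAP5, LMCD1 and EFHD1. The rule took 1961 of 6849 E60 cells, which is 28.6% (exact 95% interval 27.6 to 29.7), out of 20676 cells in the whole series. They are compared with the other 4888 E60 cells and, where stated, with a mirrored set of 1137 cells that had at least 3 of the 6 excluded genes and fewer than 3 of the markers. A further 3666 cells met neither rule, and 85 cells had at least 3 genes of both sets.

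The series sequenced the 3′ ends of transcripts of single cells, captured in droplets, from back skin of fetal Northern Shaanxi White Cashmere Goat. Follicles are induced at E60, form at E90 and differentiate at E120, and each of these ages was sampled with 1 library, in which suspensions of at least 2 fetuses had been pooled before barcoding. E60 and E90 were whole skin dissociated with collagenase IV and a pipette, whereas for E120 follicles were picked from the skin and treated with TrypLE Express, so that stage and dissociation cannot be told apart there. The labels name no treatment and no engineered allele. With 1 library per stage there is no replicate, no test was made, and every interval below is an exact 95% interval of counting error only. Because the cells were chosen by their own transcripts, all differences between chosen and other cells are descriptions of this 1 library.

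In fetal skin the upper dermis receives WNT signals, and beneath each epidermal placode a small group of fibroblasts condenses into the dermal condensate, the forerunner of the dermal papilla. DKK1 is a secreted inhibitor that blocks the WNT co-receptors, and BMP7 is a secreted bone morphogenetic protein. CXCL14 is a chemokine, ISM1 (isthmin) and C1QTNF7 are secreted proteins, and F13A1 is the A chain of coagulation factor XIII, which is also well known from macrophages. Of the excluded genes, MFAP5 encodes a microfibril protein, SERPINF1 a secreted serpin, SMOC2 a matrix-associated calcium-binding protein and SEMA3C a secreted guidance protein.

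The chosen cells were as deep as the rest, with medians of 8557 UMIs and 1783 genes against 8585 UMIs and 1833 genes in the other E60 cells. Their median mitochondrial share was 4.21% against 4.67%. The sums compared below rest on 18752891 UMIs of chosen cells and 46296661 UMIs of other cells, given as counts scaled to a total of 1000000 (CPM). Between libraries, 9 cell barcodes occurred in both E60 and E90 and 10 in both E60 and E120, of which 2 and 5 belonged to chosen cells.

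Fibroblast genes were present in the chosen cells, though mostly at lower levels than in the other E60 cells. Of 7 listed dermal fibroblast genes with at least 10 CPM, none was at least 1.5-fold higher and 4 were lower (COL1A1, COL1A2, DCN and DPT), with a median log2 ratio of CPM + 1 of -0.68. Over all genes tested, 5.16% were higher and 11% lower. PRRX1, a transcription factor of limb and skin mesenchyme, was found in 54.4% of them (52.1 to 56.6) and in 53.4% of the other E60 cells. For comparison, it was found in 9.76% of 82 myeloid cells (4.31 to 18.3) whose median depth was 8327.5 UMIs. PDGFRA, a growth factor receptor of fibroblasts, was found in 29.6% of chosen cells and in 9.76% of those myeloid cells. DCN and LUM, proteoglycans of the dermal matrix, were in 99.9% and 100% of chosen cells but also in 89.0% and 91.5% of the myeloid cells, so that at this depth their presence does not mark a fibroblast. DCN stood at 3030 CPM in chosen cells, 4846 CPM in the other E60 cells and 729 CPM in the myeloid cells.

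Cells with at least 3 markers of another type were mostly rarer among the chosen cells than among the rest, and are named here by that type. Cells with 3 genes of the mural list made up 0.918% of chosen and 10.0% of other cells, and those of the tendon or cartilage list 2.40% against 12.2%. Genes of these lists were also high in the mirrored set, with ABCC9 at 149, ACTA2 at 358 and TNMD at 887 CPM. Without cells that had 3 markers of any other type, the mirrored set fell from 1137 to 472 cells. Such counts therefore do not single out mural or tendon cells. Endothelial cells made up 0.357% against 2.66%, and myeloid cells 0.663% against 1.68%. Erythroid cells made up 0.357% against 0.307%, and of 4 epithelial cells 2 were chosen. The summed endothelial list stood at 18.9 CPM in chosen and 120 CPM in other cells, and the myeloid list at 32.1 against 97.6 CPM with CSF1R and SPI1 at 0 counts among the chosen. The epithelial list was near 0 in both, at 1.17 and 1.25 CPM, with KRT14 and TP63 at 0 counts in the chosen cells.

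The genes of the rule differed as the rule required, and their values are given only to describe the cells. CXCL14 stood at 3327 CPM in chosen cells (3301 to 3353), 545 CPM in the other cells and 234 CPM in the mirrored set. DKK1 stood at 244, 12.1 and 4.76 CPM in the same order, and ISM1 at 194, 12.6 and 8.65 CPM. Outside the chosen set DKK1 and ISM1 were not absent, since 43 cells with at least 3 markers and exactly 3 excluded genes held them at 137 and 113 CPM. F13A1 reached 272 CPM against 34.4 and 3.99 CPM. C1QTNF7 reached 89.9 CPM against 9.27 and 16.5 CPM, and BMP7 94.0 CPM against 6.76 and 12.3 CPM. For C1QTNF7 and BMP7 the mirrored cells stood above the cells of neither rule, which were at 5.20 and 3.06 CPM.

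**Figure D1:**
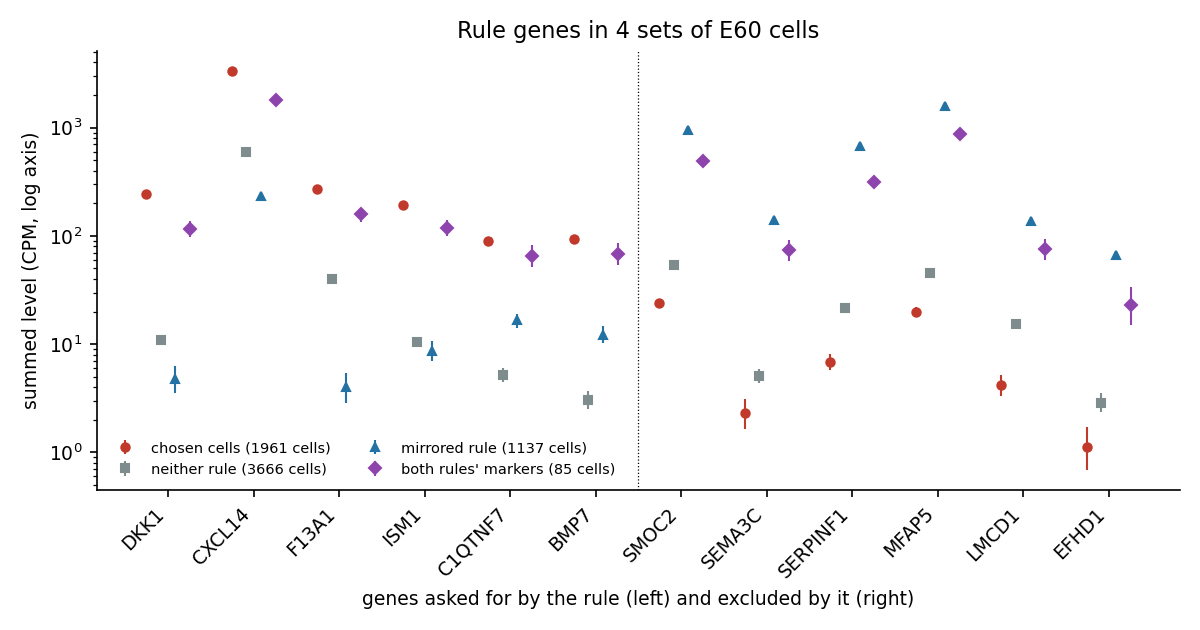
Summed level (CPM, log axis) of the 6 markers and the 6 excluded genes in the 4 sets of E60 cells, with exact 95% Poisson intervals. The chosen cells hold the highest point for each of the 6 markers, and the mirrored set the highest for SMOC2 (947 CPM), SERPINF1 (675 CPM) and MFAP5 (1591 CPM).

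Within the chosen cells the markers were unevenly spread. CXCL14 was in 99.9% of them, with a median of 27 UMIs per cell and a maximum of 208. F13A1 was in 84.4%, ISM1 in 74.0%, DKK1 in 72.3%, C1QTNF7 in 48.1% and BMP7 in 47.6%. BMP7 was the most concentrated, since the tenth of chosen cells with the most BMP7 held 47.2% of its UMIs, against 25.9% for CXCL14. Detection in a cell type that should lack most of these genes gives the background of such shares. In 49 skeletal muscle cells of similar depth (median 8606 UMIs), CXCL14 was found in 38.8%, F13A1, ISM1 and C1QTNF7 in 8.16% each, DKK1 in 6.12% and BMP7 in 4.08%. Of these 49 cells 3 met the rule themselves, so the low shares rest partly on cells picked for the markers and overstate the background. CXCL14 was thus the least specific of the 6 by detection. F13A1 was also high in 95 myeloid cells, at 617 CPM and in 91.6% of cells, and 13 of these met the rule.

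The 6 markers occurred together in many ways. Of the 42 possible combinations of 3 or more markers, 27 were seen, and the commonest was all 6, in 290 cells. CXCL14, DKK1, F13A1, ISM1 and C1QTNF7 without BMP7 came next with 223 cells. In all, 594 chosen cells had 3 markers, 546 had 4 and 531 had 5. Most chosen cells had none of the excluded genes (1289 cells), while 564 had 1 and 108 had 2.

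Cells at the edge of the rule had intermediate values. Just inside it, the 594 cells with exactly 3 markers had 1735 CPM of CXCL14, 108 CPM of DKK1 and 160 CPM of F13A1. Just outside, 1229 cells with 2 markers had 840.5, 24.6 and 94.9 CPM. The 1367 cells with 4 or more markers had 4035, 304 and 322 CPM. On the other side of the rule, 43 cells with at least 3 markers and exactly 3 excluded genes had a median of 12225 UMIs, above the 8557 of the chosen cells.

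To describe each marker in cells that it did not itself choose, each cell was thinned to 6000 UMIs and chosen by at least 3 of the other 5 markers, with fewer than 3 excluded genes. DKK1 was then found in 62.6% of 1370 such cells (60.0 to 65.2) and in 10.2% of all remaining E60 cells (9.45 to 11.1). For ISM1 the shares were 61.8% and 11.1%, and for F13A1 73.5% and 19.7%. C1QTNF7 was found in 40.6% against 6.29%, and BMP7 in 37.8% against 5.80%. CXCL14 was in 100% of 1064 such cells and in 75.5% of the rest, with levels of 4902 and 807 CPM. All 6 markers belong to the rule, so these shares describe how often they occurred together and support nothing further.

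Excluded genes were most frequent in cells with few markers. At full depth, 56.5% of the 810 cells with no marker had at least 3 excluded genes, against 19.2% of cells with 1 marker, 12.9% with 2 and 5.56% with 3. With 4 and 5 markers the shares were 3.02% and 3.63%, and among the 303 cells with all 6 it was 4.29%, so that they did not decline further past 4 markers.

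Several genes outside the rule followed the number of markers, counted at 6000 UMIs per cell. Large Spearman correlations across the 6849 cells were those of APCDD1 (0.66), TMEM132C (0.56), PTH1R (0.50), IGFBP5 (0.50), RPS20 (0.50), HS3ST6 (0.47) and RUNX3 (0.40). These cells share 1 library, and the values are descriptive. APCDD1 is a membrane inhibitor of WNT signalling that WNT itself induces, PTH1R is the parathyroid hormone receptor, and RUNX3 is a transcription factor. Among cells with fewer than 3 excluded genes, APCDD1 stood at 177, 346, 566, 1112, 1652, 2018 and 2392 CPM with 0 to 6 markers. RUNX3 stood at 3.2, 16.2, 31.6, 63.5, 104, 144 and 156 CPM over the same steps. Both genes were higher at each further marker, also between cells on the same side of the rule. IGFBP5, an insulin-like growth factor binding protein, levelled off instead, at 835 CPM with 3 markers, 951 with 4 and 866 with 6.

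Matrix genes ran the other way along the same steps. COL1A1, a chain of type I collagen, stood at 1990 CPM with no marker and 694 CPM with 6. SPARC, a collagen-binding matrix protein, stood at 4858 and 1848 CPM at the same ends. The immediate early gene JUN stood at 1230 CPM with no marker, 809.7 CPM with 1 and 3995 CPM with 6.

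**Figure D2:**
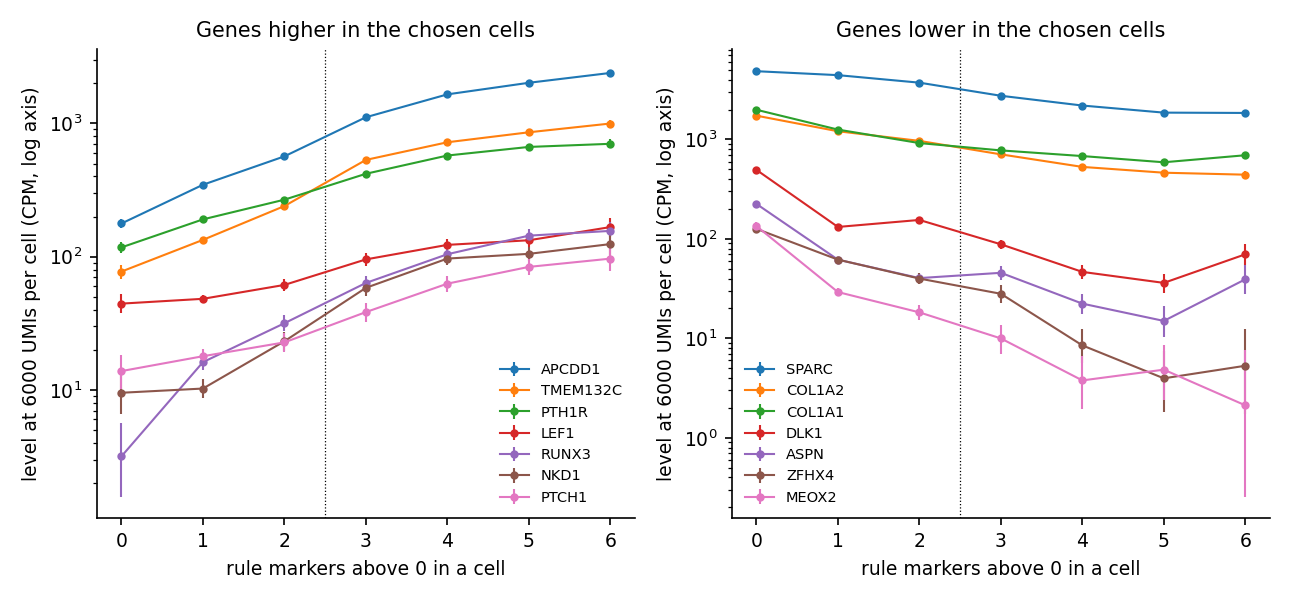
Level (CPM, log axis, exact 95% Poisson intervals) of 7 genes that were higher (left) and 7 that were lower (right) in the chosen cells, against the number of rule markers above 0, for E60 cells thinned to 6000 UMIs that had fewer than 3 excluded genes. The dotted line marks the rule. APCDD1 climbs from 177 to 2392 CPM, and SPARC declines from 4858 to 1848 CPM.

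Compared with all other E60 cells, 269 of 5216 genes outside the rule with at least 10 CPM were at least 1.5-fold higher in the chosen cells (5.16%), on the scale of log2(CPM + 1). At least 1.5-fold lower were 574 genes (11%). Without cells that carried 3 markers of another cell type, the counts were 335 higher and 429 lower, so that the share of higher genes among those past the fold was 43.8% in place of 31.9%. The median log2 ratio over all these genes was -0.06.

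RUNX3 had the largest ratio among genes of at least 50 CPM. It stood at 90.3 CPM in chosen cells (86.1 to 94.7) and 14.9 CPM in the others (13.9 to 16.1), a 6.04-fold difference, and was detected in 52.1% and 11.3% of cells. In 82 myeloid cells it was found in 9.76%, and in 46 muscle cells in 4.35%. NKD1, an intracellular brake on WNT signalling, was 5.31-fold higher, at 75.5 against 14.2 CPM. APCDD1 stood at 1390 CPM (1374 to 1407) against 309 CPM (304 to 314), a 4.50-fold difference, and in 98.8% against 75.1% of cells. LIX1 was 4.47-fold and TMEM132C, a transmembrane protein, 4.12-fold higher, the latter at 614 against 149 CPM.

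Also among the largest ratios were BTG2, an antiproliferative early response gene, at 119.7 against 30.4 CPM, DERL3, a protein of endoplasmic reticulum degradation, at 52.3 against 13.3 CPM, and TASP1, a protease, at 52.9 against 14.8 CPM. IGFBP5 stood at 803 against 247 CPM. The Hedgehog receptor PTCH1, which Hedgehog signalling induces, was 3.30-fold higher at 55.5 against 16.8 CPM. SEMA3D, a secreted guidance protein, was 3.08-fold higher at 134 against 43.6 CPM. None of these genes was restricted to the chosen cells.

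On the log2(CPM + 1) scale the lower genes were led by DLK1, with a log2 ratio of -4.29. It is a non-canonical Notch ligand of immature mesenchyme and stood at 55.8 CPM in chosen cells (52.5 to 59.3) and 1112 CPM in the others, which is 19.9-fold lower, and the mirrored set held most of it at 4204 CPM. In cells of neither rule DLK1 was at 137 CPM. TNMD, a tendon membrane protein, was 17.7-fold lower at 15.9 against 282 CPM. ANGPTL1, a secreted angiopoietin-like protein, was 20.1-fold lower at 4.0 against 80.2 CPM. ASPN, a small proteoglycan, was 16.1-fold lower at 25.9 against 417 CPM. These genes, too, were highest in the mirrored set, with TNMD at 887 and ASPN at 1553 CPM there.

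CYTL1, MEOX2, THBS2, ZFHX4 and ABCC9 were between 10.4-fold and 13.8-fold lower. Of these, MEOX2, a homeobox factor of mesoderm, stood at 5.71 CPM in chosen cells, 48.4 CPM in cells of neither rule and 169 CPM in the mirrored set. TM4SF1 and PLVAP, genes of endothelial cells, were 12-fold and 10.8-fold lower, beside an endothelial share of 0.357% against 2.66%. The part of endothelial cells in these 2 values was not tested. SFRP1, a secreted WNT antagonist, stood at 4.8 CPM (3.86 to 5.90) against 52.9 CPM (50.8 to 55.0).

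Against the mirrored set, 558 of 5352 genes were at least 1.5-fold higher in the chosen cells (10.4%) and 950 at least 1.5-fold lower (17.8%). Besides RUNX3, DERL3, APCDD1 and LIX1, the leading higher genes included HS3ST6, a heparan sulfate sulfotransferase, at 379 against 32.1 CPM. It separated the chosen cells mainly from the mirrored set, since cells of neither rule held 190.5 CPM of HS3ST6. CCL11, an eosinophil-attracting chemokine, was among the leading lower genes at 1.71 against 127 CPM. Against the cells of neither rule, 272 of 5173 genes were higher (5.26%) and 488 lower (9.43%).

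The lists of WNT pathway genes differed in direction against all other E60 cells. Counts of listed genes, here and below, stand beside 5.16% higher and 11% lower over all genes tested. Of 11 listed targets and transducers with at least 10 CPM, 7 were at least 1.5-fold higher in the chosen cells and none lower, with a median log2 ratio of 1.14 against -0.06 over all genes. Beside APCDD1 and NKD1, these were NKD2 at 327 against 123 CPM, the receptor-degrading ligase ZNRF3 at 29.3 against 11.0 CPM, LEF1, AXIN2 and CCND1. The last 3 were named after their values had been seen. LEF1, the transcription factor through which WNT acts, stood at 106 against 42.8 CPM. AXIN2, a feedback inhibitor, stood at 72.8 against 32.6 CPM, and CCND1, cyclin D1, at 580.5 against 305 CPM. The transcription factors TCF7L1 and TCF7L2 had log2 ratios of -0.50 and -0.51, short of the fold used.

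Of 5 secreted WNT modulators outside the rule, 3 were lower and 1 higher than in all other cells, with a median log2 ratio of -2.17. Against cells of neither rule the median was 0.78, over the 2 genes that then had at least 10 CPM. The 3 lower genes fell under that filter there, so the 2 medians do not cover the same genes and cannot be compared in direction. RSPO3, an R-spondin that strengthens WNT signalling, was the higher one, at 130.0 CPM (125 to 135) against 54.2 CPM. SFRP1, FRZB and DKK2 were lower, FRZB at 1.23 against 13.7 CPM and DKK2 at 5.76 against 29.4 CPM. In cells of neither rule SFRP1, FRZB and DKK2 were at 9.09, 4.97 and 7.82 CPM. Among 4 receptors, FZD10 was 5.48-fold higher at 32.4 against 5.92 CPM, and LGR5, an R-spondin receptor, was 2.54-fold lower at 13 against 33.1 CPM. Of 3 WNT ligands with at least 10 CPM, WNT11 and WNT5B were lower, at 11.1 against 22.4 CPM and 10.9 against 17.4 CPM.

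In the BMP pathway the antagonists were low. All 5 listed antagonists with at least 10 CPM were at least 1.5-fold lower, namely BAMBI, FSTL1, FST, CHRD and, named after its value was seen, SMAD7. CHRD and SMAD7 lay close to that fold, with log2 ratios of -0.61 and -0.60. BAMBI, a pseudoreceptor that blocks BMP and TGF-beta signalling, was 12.5-fold lower at 2.13 CPM (1.52 to 2.90) against 26.6 CPM. FST, follistatin, stood at 26.0 against 45.1 CPM and CHRD, chordin, at 8.85 against 14 CPM. Of the ligands outside the rule, BMP4 stood at 41.3 against 14.1 CPM, but the mirrored set held 45.8 CPM of it and cells of neither rule 3.46 CPM. GDF10 was 4.32-fold lower at 46.1 against 199 CPM. Of 6 receptors and targets, only the target ID4 passed the fold, at 12.6 against 31.1 CPM.

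In the TGF-beta list 1 of 9 genes was higher and 3 were lower, beside 5.16% and 11% over all genes. INHBB, an activin subunit, was 7.87-fold higher at 18.9 CPM (17.0 to 20.9) against 2.40 CPM. The ligands TGFB2 and TGFB3 were 9.39-fold and 4.89-fold lower, at 4.69 and 3.31 CPM in the chosen cells. Hedgehog target genes were higher, GLI1 at 10.8 against 2.01 CPM and PTCH1 as given above, whereas GLI2, GLI3 and the co-receptor CDON did not reach the fold. Among 6 FGF pathway genes 1 was higher and 3 were lower. The response genes ETV5 and DUSP6 differed in direction, ETV5, a transcription factor, at 37.6 against 8.06 CPM and DUSP6, a phosphatase, at 36.1 against 64.6 CPM. For DUSP6 the log2 ratio of -0.82 became 0.034 without cells that carried 3 markers of another type. The ligands FGF18 and FGF7 were 6.25-fold and 5.80-fold lower.

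Several other ligand and receptor families held more lower than higher genes. The chemokine CXCL14, high in the chosen cells, is a rule gene and was left out of these counts. Outside the rule, all 6 genes of the list of chemokines, their receptors and related cytokines with at least 10 CPM were lower. CXCL12 was among them, at 41.3 against 92.5 CPM. For CXCR4, also in that list, the log2 ratio was -1.21 over all cells and 0.025 without cells that carried 3 markers of another type. Of 9 insulin-like and platelet-derived growth factor genes 6 were lower and 2 higher, IGFBP3 being the other higher one beside IGFBP5, at 36.2 against 6.72 CPM. Of 6 retinoid genes 4 were lower and 1 higher; the retinal dehydrogenases ALDH1A3 and ALDH1A1 were at 3.15 and 2.19 CPM against 24.9 and 16.8 CPM. Axon guidance genes divided evenly, with 3 of 8 higher and 3 lower. SEMA3D led the higher ones, and SEMA3E, at 1.92 against 17.2 CPM, the lower ones.

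Extracellular matrix genes were lower as a group. Of 13 collagens, 9 were at least 1.5-fold lower and 2 higher, with a median log2 ratio of -1.35. COL1A1 stood at 721 CPM (709 to 733) against 2252 CPM and COL1A2 at 609.9 against 1934 CPM. Cells of neither rule held 1204 and 1152 CPM of these 2 genes, and the mirrored set 5597 and 4450 CPM. COL12A1, a fibril-associated collagen, had the largest ratio at 10.1-fold lower. COL13A1, a transmembrane collagen, was 3.79-fold higher at 14.5 against 3.82 CPM. Of 12 elastic and other matrix genes 8 were lower and none higher, with SPARC at 2501 against 5020 CPM and POSTN, periostin, at 3887 against 7528 CPM. Of 10 proteoglycans 6 were lower and none higher, and the metalloproteinase MMP2 was 2.02-fold lower.

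Layer markers of the dermis pointed in 2 directions. Of 7 upper dermis genes with at least 10 CPM, 6 were higher and none lower, with a median log2 ratio of 1.40. In this list APCDD1, AXIN2, NKD1, NKD2 and LEF1 also belong to the WNT list, so that both counts rest on the same genes. Of 8 genes of the lower dermis or fascia, 5 were lower and none higher, with a median of -1.73. CLEC3B, tetranectin, was 6.74-fold lower at 119 against 799 CPM, and GPC3, a glypican, 4.22-fold lower. Of 20 mesenchymal transcription factors 7 were lower, among them ZFHX4 and TBX3, and 2 were higher. These 2, named after their values were seen, were IRX1 at 325 against 135 CPM and TCF4 at 376 against 200.5 CPM.

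**Figure D3:**
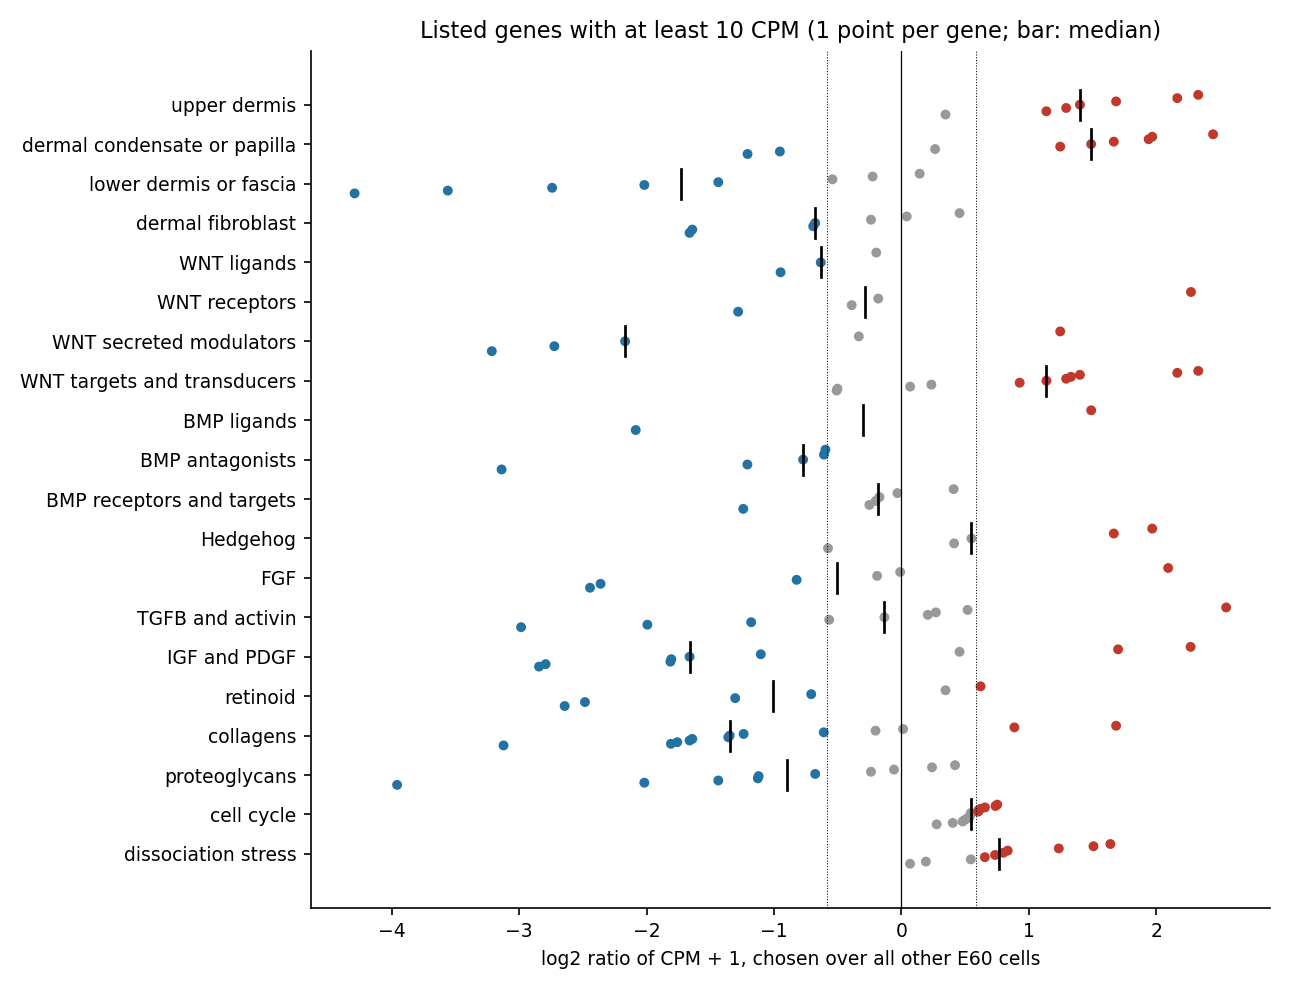
Log2 ratio of CPM + 1 of listed genes with at least 10 CPM, chosen over all other E60 cells, 1 point per gene and a bar at each list's median. Dotted lines mark 1.5-fold. The upper dermis (median 1.40) and WNT target (1.14) lists lie to the right, and collagens (-1.35) and lower dermis (-1.73) to the left.

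Division and stress genes were somewhat higher in the chosen cells. Of 15 cell cycle genes 6 passed 1.5-fold and none was lower, and the list summed to 1784 CPM in chosen and 1187 CPM in other cells. Of 10 early response genes that dissociation can induce, 7 were higher and none lower. JUN stood at 2801 against 1189.8 CPM, and DUSP1, a phosphatase, at 797 against 447 CPM. Against the mirrored set only 3 of the 10 were higher and 1 was lower, beside 10.4% and 17.8% over all genes. The whole list summed to 11493 CPM in chosen, 6699 CPM in other and 9571 CPM in mirrored cells. Among cells without TOP2A, CENPF and MCM5, 845 of them chosen and 2758 not, 265 genes were higher and 622 lower. Among these were 202 of the 269 higher and 493 of the 574 lower genes found over all cells. The part of the stress genes was not tested.

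Clusters of the E60 cells were computed without the 12 rule genes, to see how the chosen cells fall. Of 25 clusters, 5 were chosen cells by more than 50% and held 67.8% of all chosen cells. Cluster 3, with 599 cells, was 93.8% chosen (91.6 to 95.6) and held 28.7% of all chosen cells. Cluster 6 (448 cells) was 69.9% chosen and led by IGFBP5 and LIX1. Clusters 9 and 13, of 276 and 165 cells, were 96.7% and 93.3% chosen and led by replication and histone genes, with the cell cycle list at 1572 and 4391 CPM against 163 CPM in cluster 3. Clusters 4 and 11 held 0 chosen cells of 515 and 253, with exact 95% upper bounds of 0.714% and 1.45%, and were 95.5% and 94.9% mirrored cells.

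The chosen cells differed among these clusters. In the 562 chosen cells of cluster 3 CXCL14 stood at 5707 CPM, and in the 313 of cluster 6 at 2723 CPM. ISM1 stood at 365 and 119 CPM, and APCDD1 followed the same order at 2046 and 1081 CPM. IGFBP5 did not, at 1168 CPM in cluster 3 and 1192 CPM in cluster 6. Haemoglobin genes led cluster 3 by fold, but 15 of its cells held 98.5% of its HBAI UMIs and the median cell had 0. Among all chosen cells, 7 held 92.6% of the HBAI UMIs, and HBAI summed to 629 CPM in chosen and 570.0 CPM in other cells.

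**Figure D4:**
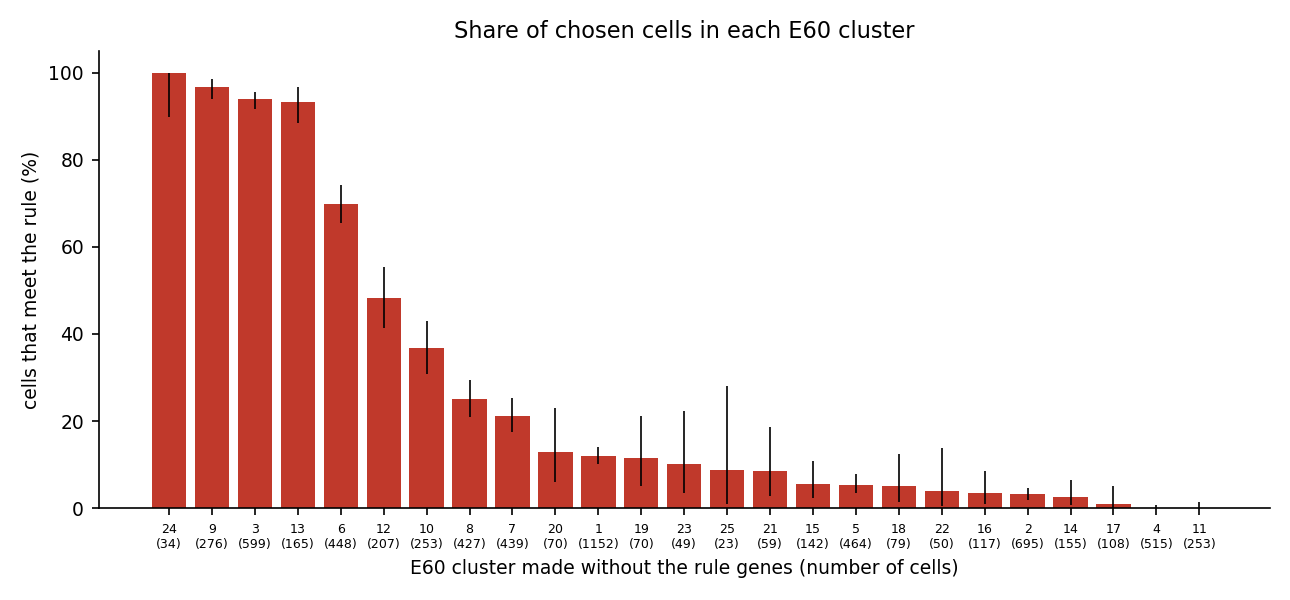
Share of cells that met the rule in each of 25 E60 clusters made without the rule genes, with exact binomial 95% intervals and the number of cells under each cluster number. A group of 5 clusters stands above 50%, and clusters 4 and 11 stand at 0.

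The smallest of the 5 was cluster 24, whose 34 cells were all chosen. SMOC1, BMP4, TESC, TRH, SOX18, CMTM2, HAPLN3, GLI1, PTCH1 and SNAI1 led it by fold, 4 of which belong to the list of dermal condensate or papilla markers, so that it is called dermal condensate- or papilla-like. Its median depth was 6714 UMIs. SOX18, a transcription factor of condensates and also of endothelium, stood at 1267 CPM (1129 to 1417) against 20.7 CPM in the other chosen cells and 72.2 CPM in cells not chosen. BMP4 stood at 654 against 33.3 CPM, and PTCH1 at 464 against 50.1 CPM. CXCR4, a chemokine receptor, stood at 410 CPM against 10.6 CPM. SOX2, a classical condensate factor, rested on 9 UMIs in 3 cells. FOXD1, HEY1, CORIN and BMP3 had 0 counts, which allows up to 15.3 CPM each.

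The rule's genes were themselves high in cluster 24. CXCL14 stood at 14939 CPM (14456 to 15435) against 3176 CPM in the other chosen cells, BMP7 at 911 against 83.4 CPM, and F13A1 at 952 against 264 CPM. DKK1 was not higher there, at 224 CPM (168 to 292) against 244 CPM. APCDD1 reached 3904 CPM against 1358 CPM, and CCND1 2153 against 560.0 CPM. The WNT genes did not all lie on 1 side, since AXIN2 was at 24.8 CPM (9.1 to 54.1) against 73.5 CPM and RSPO3 at 24.8 against 131 CPM. RSPO3 is also in the condensate or papilla list, and there it goes against the cluster's name. IGFBP5 was lower, at 178 against 811 CPM, and the cell cycle list was at 286 against 1803 CPM. COL1A1 stood at 430.5 against 725 CPM. The clustering used the listed genes outside the rule, so these values describe the cluster and test nothing.

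**Figure D5:**
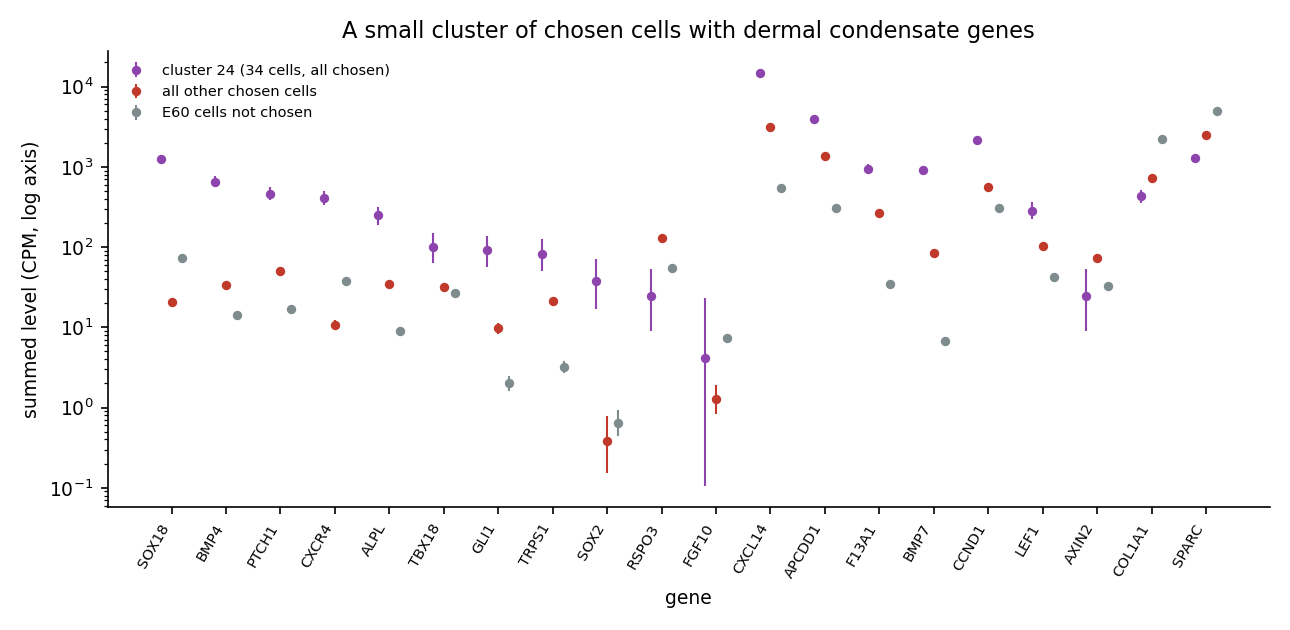
Summed level (CPM, log axis, exact 95% Poisson intervals) of 20 genes in the 34 cells of cluster 24, in all other chosen cells and in E60 cells not chosen. SOX18, BMP4, PTCH1 and CXCR4 stand apart in cluster 24, at 1267, 654, 464 and 410 CPM, while RSPO3 and AXIN2 are lower there at 24.8 CPM.

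The condensate or papilla list also had a higher sum in the chosen cells outside cluster 24, though its genes differed in direction. Over all chosen cells 6 of its 9 genes with at least 10 CPM were at least 1.5-fold higher and 2 lower, SOX18 and CXCR4 being the lower ones. The list summed to 391 CPM in all chosen cells, 352 CPM in those outside cluster 24, 254 CPM in cells not chosen and 3382 CPM in the cluster. All 6 higher genes were above the unchosen cells outside the cluster too. TRPS1, ALPL and PTCH1 stood at 21.1, 34.7 and 50.1 CPM against 3.20, 9.03 and 16.8 CPM. BMP4, RSPO3 and GLI1 stood at 33.3, 131 and 9.72 CPM against 14.1, 54.2 and 2.01 CPM.

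The rule was also applied to the later libraries, with each cell thinned to 2000 UMIs because depth differed. It then took 11.8% of E60 cells (11.1 to 12.6), 5.27% of E90 cells (4.75 to 5.82) and 0.261% of E120 cells (0.155 to 0.412). Unthinned, the shares were 28.6%, 15.6% and 2.19%. At 2000 UMIs CXCL14 alone was found in 61.9% of E60 and 96.9% of E90 cells, so the rule did not select alike at these stages. The markers parted over the stages. Over whole libraries DKK1 stood at 78.8 CPM at E60, 26.2 CPM at E90 and 0.214 CPM at E120, and F13A1 at 103, 46.1 and 0.246 CPM. CXCL14 had its highest value at E90, at 1347, 3175 and 748 CPM. BMP7 stood at 31.9, 88.4 and 132 CPM. Fewer cells of a type and less RNA per cell cannot be told apart in these whole-library sums, and the E120 library was made of picked follicles.

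CXCL14 was found in 99.6% of all E90 cells and in 83.3% of E60 cells, so that this marker hardly separated cells at E90. E90 cells that met the rule had a median of 4075 UMIs, against 3714 in their whole library. The part of either in the E90 values below was not tested. At E90 the cells that met the rule differed less from the rest of their library. APCDD1 stood at 589 CPM in the 1081 such cells and 389 CPM in the rest, RUNX3 at 28.3 against 13.7 CPM, and TMEM132C at 140 against 83.6 CPM. IGFBP5 was not higher there, at 70.1 against 77.3 CPM, and DLK1 stood at 40.1 against 38.6 CPM. At E120 the rule took 151 cells unthinned, in which DKK1 rested on 8 UMIs and F13A1 on 3 UMIs, so that these 2 markers hardly took part there. The rule marker ISM1 rested on 148 UMIs. Outside the rule, RUNX3 stood at 24.5 against 4.24 CPM in the rest of the library and IGFBP5 at 290 against 61.2 CPM. APCDD1 went the other way, at 210 against 262 CPM. The differences between stages were not tested.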

How the data were processed

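Droplet 3′ single-cell RNA-seq libraries (10x Genomics, version 3 chemistry per the labels' protocols) were processed with Cell Ranger 3.0.2 per the submitters' processing notes; build, annotation and cell filters are not given in the sources used here. The deposited values are natural log values, ln(1 + UMIs per 10000 of the cell). Counts had been assumed; all nonzero values inverted to whole UMIs within 0.01, and those were used. All 20676 cells entered, 971 more than the design text states. The table holds 16739 genes.

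Counts were summed over the chosen and compared E60 cells and given as CPM. Ratios are log2 of CPM + 1 for genes with at least 10 CPM in either sum, and the 12 rule genes were left out of counts. Intervals are exact Poisson and Clopper-Pearson. Clusters used 2000 variable genes without the rule genes, 30 components, 20 neighbours and Leiden resolution 1 (leidenalg 0.10.2, igraph 0.11.9, scipy 1.17.1). No cell was removed as a doublet; removal of the highest 6% of Scrublet-style scores, which mark no doublets by themselves, was an alternative. The code was tested on simulated data.

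The members, the 39 gene lists and the comparisons were chosen with earlier results of these data known. Named are the 12 largest and smallest ratios at 50 CPM or more against other cells, 6 each way against the mirrored set, up to 4 members past 1.5-fold per list and the 8 genes most correlated with marker number; a few that the rule names are not reported here. Of the fetus sex list, 0 of 8 genes were in the table. TIMP3 is spelled Timp3 there and was unmatched.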

Additional observations from a re-analysis of the deposited data

Results flagged for a closer look

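SFRP1, a secreted WNT antagonist, stood on opposite sides at 2 stages. In cells that met the rule its log2 ratio over the rest of the library was -3.22 at E60 (4.8 against 52.9 CPM) and 1.71 at E120 (87.2 against 25.9 CPM), and at E90 it was -0.23. Each stage is 1 library, the E120 cells that met the rule were 151 in number and had DKK1 on 8 UMIs, and the difference between stages was not tested.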

How the results depend on the processing

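The number of chosen cells depended on the rule: 19.96% of E60 cells with at least 4 markers, 46.6% with at least 2, 29.9% with no regard to excluded genes and 24.5% at 6000 UMIs per cell. Against all other cells, 159 genes were higher with a pseudocount of 10 CPM, 102 higher and 224 lower at a filter of 50 CPM, and 483 and 1256 at 1 CPM. Against the mirrored set the filters gave 226 higher and 403 lower, and 1082 and 1835. With at least 2 of the other 5 markers, the shares were 44.5% for DKK1, 99.1% for CXCL14, 60.1% for F13A1, 44.6% for ISM1, 27.5% for C1QTNF7 and 26.1% for BMP7. Clusters over 50% chosen held 56.6% of chosen cells at resolution 0.5 and 74.4% at 2. Without cells with 3 markers of another type, some log2 ratios turned positive against other cells: C1QA (0.38), COL2A1 (0.89), CXCR4 (0.025), DUSP6 (0.034), ESAM (0.00361), KDR (0.34), MYOG (0.016), THBS4 (0.22) and the skeletal muscle median (0.33). Against the mirrored set COL2A1 (0.81), ESAM (0.021), KDR (0.72) and PECAM1 (0.49) turned positive, and C1QB (-0.18), HBAI (-0.21) and the erythroid median (-0.32) negative. Apart from CXCR4 and DUSP6, these genes belong to the lists by which cells were removed, so a shift in them was built into the removal. It left 1867 of 1961 chosen and 3678 of 4888 other cells. With cells of neither rule as the reference, an alternative chosen after seeing the data, IGF1 (0.00097) and the median of secreted WNT modulators (0.78) turned. That median then covered 2 genes in place of 5. Among non-cycling cells, also chosen after seeing the data, RRM2 turned against other cells (-0.28), and RRM2 (-0.24), MCM3 (-0.35) and MYOG (1.11) against the mirrored set. At 6000 UMIs CXCR4 (0.25), KDR (0.075) and MYOG (1.12), and at 50 CPM the axon guidance median (0.41), turned against the mirrored set. The cause was not tested. No other named gene past the fold turned against other cells under these alternatives. There 985 values stayed within an approximate counting interval, 625 moved out of it without turning and 10 turned. No paired analysis was possible because each stage is 1 library with no replicate. Genes with few counts are limited by depth, and the pooled fetuses cannot be told apart.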

Other observations

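Lists of cell types and families not described above added little in the chosen cells. The skeletal muscle list summed to 89.4 CPM in chosen and 158 CPM in other E60 cells, with PAX7 at 0 counts among the chosen, and ACTC1, a muscle actin, stood at 17.3 against 92.5 CPM. The Schwann or glial list stood at 5.60 against 28.6 CPM, the mast list at 7.41 against 20.6 CPM and the adipocyte list at 25.8 against 38.2 CPM. Melanocyte genes summed to 1.97 against 8.83 CPM, with TYR and TYRP1 at 0 counts among the chosen. Of 4 HOX genes with at least 10 CPM, HOXB2 was higher at 84.0 against 49.5 CPM and none was lower, beside 5.16% higher and 11% lower over all genes. In the Notch list JAG1, a ligand, was higher at 47.9 against 27.7 CPM, and the receptor NOTCH3, which mural cells also carry, was lower at 20.5 against 43.0 CPM. Of 8 proteases and inhibitors 3 were lower and none higher, with TIMP2, a metalloproteinase inhibitor, at 243 against 516 CPM.

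RPS20, a ribosomal protein gene present in all cells, was among the genes most correlated with marker number, at 8072 CPM in cells with no marker and 13457 CPM in cells with 6. Between chosen and other cells it differed by 1.29-fold, below the fold used for the counts.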
